A study of Mus musculus with 33 samples.

Results

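The libraries described here measure how far DP-seq, an amplification of cDNA with a defined set of heptamer primers, keeps the same picture of differentiating cells when less mRNA goes in. They are the 2 libraries made from 1 ng and the 2 made from 10 ng of mRNA, 4 of the 33 libraries of the series, and were chosen by their labels alone. Both amounts come from mouse embryonic stem cells that were grown without serum as embryoid bodies, dispersed on day 2, given activin A at 3 ng/mL, and harvested on day 4. The labels name neither the stem cell line nor its strain. The labels call the libraries of an input technical replicates. They do not say whether both inputs were drawn from 1 RNA preparation, so a difference of input and a difference of preparation cannot be told apart, and nor can fewer cells of a type and less RNA per cell. Every p-value below sets a difference against technical spread, since n = 2 at each input is 1 sample measured 2 times.

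Activin A binds the same receptors as Nodal, the TGF-β family ligand that sets up the primitive streak in the mouse embryo. In stem cell cultures, lower activity of this pathway favours posterior streak and mesoderm, and higher activity favours anterior streak and definitive endoderm, while its absence lets cells turn towards neural fates. Many of the transcription factors that mark these fates are made from few mRNA copies or in few cells, and low-copy transcripts are the first to be lost when a library starts from little RNA.

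The 1 ng libraries held 8181409 and 10387268 counts, and the 10 ng libraries held 3110866 and 10324740. Replicate 1 of 10 ng is therefore the shallowest of the 4, and it touches every result on low counts below. At a common depth of 3110866 counts, 13270 and 13169 genes would have a count in the 1 ng libraries, against 13125 and 13062 in the 10 ng libraries. The most abundant gene took 1.61% and 1.502% of counts at 1 ng, against 1.30% and 1.28% at 10 ng. Markers of streak and endoderm such as T and Cer1 were well measured at both inputs. Of 25 genes of adult tissues not expected on day 4, 4 reached 10 counts in both libraries at either input and 9 had no count in any of the 4. Among the measured, Mbp, the myelin basic protein gene, stood at 13.9 and 11.8 CPM at 1 ng, against 6.99 and 8.22 CPM at 10 ng (adjusted p = 0.0430 in edgeR). It missed the threshold without replicate 1 (adjusted p = 0.217) or 2 (0.117) of 1 ng, and without replicate 2 of 10 ng (0.0538). Its part in the results on lineage genes was not tested.

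A gene was called measured at an input when it had at least 10 counts in both libraries. The lineage genes were 193 genes in 12 lists, covering streak, endoderm, mesoderm, blood and endothelium, neuroectoderm, neural crest, pluripotency, germ cells, Hox genes, trophoblast, extraembryonic endoderm and the activin and Nodal pathway itself. At 10 ng, 78 of them were measured, and all 78 were measured at 1 ng as well. Among all genes, 8939 of the 8965 measured at 10 ng were measured at 1 ng, or 99.7%, so the lineage share is close to the background. At 1 ng, 93 lineage genes were measured. The lower number at 10 ng goes with its shallow library. Without replicate 1 of 10 ng, 97 lineage genes were measured at 10 ng and 90 of these at 1 ng (92.8%). Over all genes it was then 10206 of 10771 (94.8%). Both 1 ng libraries are deeper than replicate 1 of 10 ng, so the limit of 10 counts was easier to reach at 1 ng. With counts scaled to the smallest library, 70 of 72 lineage genes (97.2%) stayed measured, against 97.6% of all genes.

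Rare lineage genes were defined outside this comparison, as those with at least 1 count in both standard RNA-seq libraries of the same activin dose and a mean there under 5 CPM, which is counts per 1000000 counts of the library. There were 76 of them. Only 5 were measured at 10 ng, and all 5 were measured at 1 ng: Fgf4, Foxa3, Neurod1, Msx2 and Ascl2. Of all 548 rare genes measured at 10 ng, 530 were measured at 1 ng, which is 96.7%. That share goes with the greater depth of the 1 ng libraries than of replicate 1 of 10 ng. With counts scaled to the smallest library, 293 of 372 rare genes (78.8%) and 4 of 4 rare lineage genes stayed measured. At 1 ng, 12 rare lineage genes were measured. When 100 pg stood in the place of 1 ng, 4 of the 5 rare lineage genes and 354 of the 548 rare genes were measured.

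Replicate 2 of each input gives a closer comparison, since these libraries have nearly the same total. In them, 15 rare lineage genes reached 10 counts at 1 ng and 14 at 10 ng. Of these, 11 did so at both inputs, among them the pluripotency factor Klf4, the streak gene Mesp2, the hindbrain gene Hoxb1, the mesenchyme factor Snai2 and the placental factor Gcm1. Another 4 did so at 1 ng alone: Sox1, Tek, Ifitm1 and Dppa5a. The remaining 3 did so at 10 ng alone: Bmp4, Hand1 and Pax6. Over all 5804 rare genes the same split was 1374 at both, 342 at 1 ng alone and 256 at 10 ng alone, so more genes reached the limit of 10 counts at 1 ng alone than at 10 ng alone. This comparison was chosen after the depths were seen.

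The genes that crossed that limit had between 3 and 30 counts in each of the 4 libraries. Sox1, an early neural plate factor, had 18 and 30 counts at 1 ng, against 9 and 7 at 10 ng. Tek, the angiopoietin receptor of endothelium, had 10 and 17 counts at 1 ng, against 3 and 4 at 10 ng. Bmp4, a ligand that favours posterior mesoderm, had 9 and 7 counts at 1 ng, against 5 and 19 at 10 ng. Counts at 1 ng lay above those at 10 ng for Sox1 and Tek and within their range for Bmp4, but scaled to depth Sox1 overlapped too, at 2.17 and 2.88 CPM at 1 ng, against 2.86 and 0.702 CPM at 10 ng. Pax6, a neural and eye regulator, had 9 and 6 counts at 1 ng, against 5 and 14 at 10 ng. Hand1, a factor of lateral mesoderm and trophoblast, had 8 and 9 counts at 1 ng, against 7 and 16 at 10 ng. Ifitm1, an interferon-induced membrane protein gene of early germ cells, had 15 and 18 counts at 1 ng, against 8 and 6 at 10 ng. Dppa5a, an RNA-binding protein gene of pluripotent cells, had 5 and 10 counts at 1 ng, against 3 and 6 at 10 ng, too few to be tested. None of the other 6 genes passed the test of a change, with adjusted p from 0.157 for Tek to 0.515 for Ifitm1. Sox1 did rest on the libraries used: without replicate 1 of 10 ng its log2 change was 1.84 (adjusted p = 0.0153 in edgeR), and without replicate 2 of 10 ng it was -0.17 (0.891).

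Apart from Foxa3, the rare lineage genes measured at both inputs did not pass the test of a change. Fgf4, a growth factor of the epiblast and streak, stood at 6.63 and 7.68 CPM at 1 ng, against 5.72 and 6.21 CPM at 10 ng. Neurod1, a neuronal and endocrine bHLH factor, stood at 8.43 and 10.9 CPM at 1 ng, against 8.26 and 7.62 CPM at 10 ng. Ascl2, a trophoblast bHLH factor, stood at 5.54 and 5.19 CPM at 1 ng, against 5.08 and 5.61 CPM at 10 ng. The values at 1 ng were above those at 10 ng for Fgf4 and Neurod1 by small margins, and they overlapped for Ascl2. The 95% intervals of the log2 change ran from -0.27 to 0.77 for Fgf4, from -0.18 to 0.82 for Neurod1 and from -0.58 to 0.53 for Ascl2, so a change of 2-fold or more lay outside all of them. Msx2, a homeobox gene of neural crest and limb, stood at 1.57 and 1.83 CPM at 1 ng, against 3.81 and 2.21 CPM at 10 ng. Its values were lower at 1 ng, and its interval from -1.56 to 0.25 takes in a 2-fold fall.

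Measurement followed the level in standard RNA-seq at both inputs. Between 2 and 5 CPM in standard RNA-seq, 10 of 16 lineage genes were measured at 1 ng and 4 of 16 at 10 ng. Between 10 and 20 CPM, 19 of 22 were measured at 1 ng and 15 of 22 at 10 ng, and from 50 CPM up all 32 were measured at both. Under 0.5 CPM, none of 30 was measured at either input, though 14 had a count in both 1 ng libraries and 10 in both 10 ng libraries. A few lineage genes had no count in any of the 4 libraries although standard RNA-seq held them. Skil, a repressor that is itself induced by Nodal signalling, was the highest of these, at 1.90 CPM in standard RNA-seq. A count of 0 allows up to 0.367 and 0.289 CPM in the 1 ng libraries, and up to 0.964 and 0.291 CPM in the 10 ng libraries, for counting error only.

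**Figure D1:**
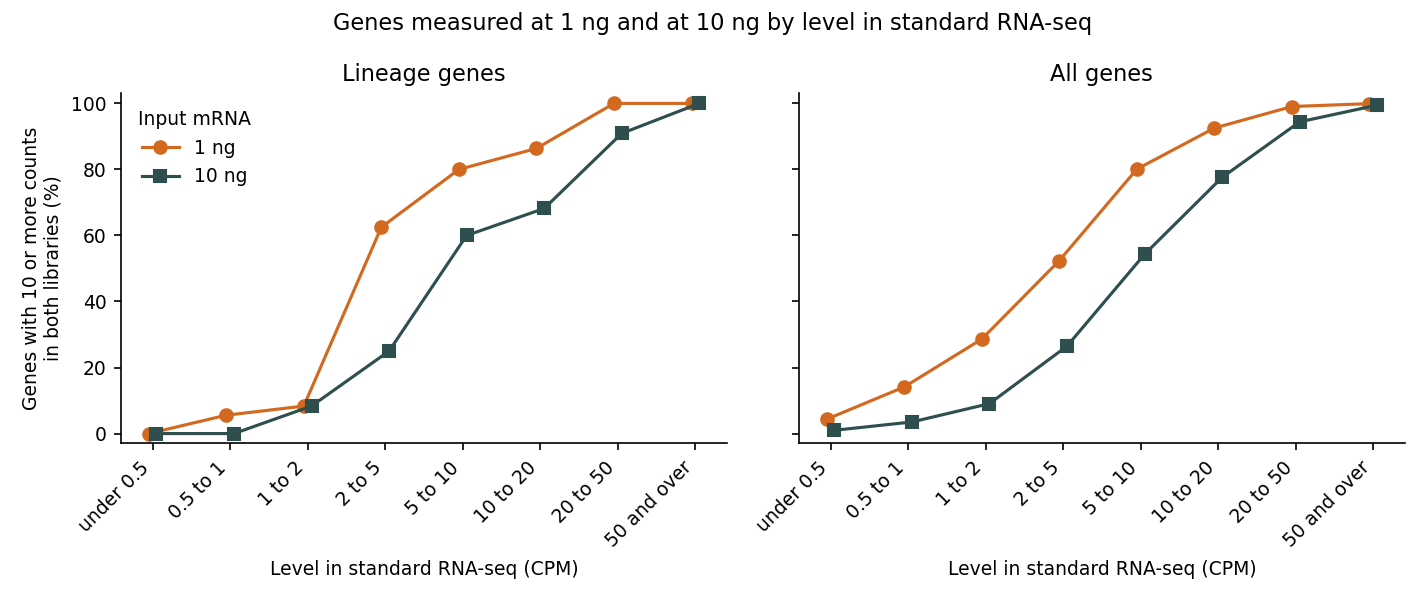
Percentage of genes with at least 10 counts in both libraries of an input (vertical axis) by mean level in standard RNA-seq (horizontal axis, CPM), for lineage genes (left) and all genes (right); circles are 1 ng and squares 10 ng. The 1 ng line lies on or above the 10 ng line in every band, and replicate 1 of 10 ng had only 3110866 counts.

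Outright loss was rare over all genes. No gene with 20 or more counts over the 10 ng libraries was at 0 in both 1 ng libraries, and no gene with 20 or more counts over the 1 ng libraries was at 0 in both 10 ng libraries. A single gene measured at 10 ng had no count in 1 of the 1 ng libraries. This was Rny1, the gene of a small cytoplasmic RNA, with 0 and 71 counts at 1 ng, against 21 and 28 at 10 ng. In the other direction, 27 genes measured at 1 ng had no count in a 10 ng library, in each case replicate 1.

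Levels were then compared with edgeR over the 10807 genes with enough counts. At 1 ng, 880 genes were higher (8.14%) and 737 were lower (6.82%) than at 10 ng, at an adjusted p under 0.05. All 1617 calls pointed the same way in all 4 pairs of a 1 ng and a 10 ng library. That agreement adds no support, since the calls were made on these same libraries. The changes were mostly small: 151 of the higher genes and 106 of the lower genes passed 2-fold, and 19 and 2 passed 4-fold. The middle of the distribution lay at a log2 change of 0.01, with 25% of the genes below -0.26 and 25% above 0.30. For 7570 genes, or 70.0%, the 95% interval lay within 2-fold in either direction. The counts of calls moved with the libraries in the fit. Without replicate 1 of 1 ng there were 476 higher and 331 lower genes, without replicate 2 of 1 ng 197 and 139, and without replicate 1 of 10 ng 1596 and 1436. With all 12 libraries of the dilution series in the fit, edgeR called 0 genes, with 136 at an unadjusted p under 0.05, while DESeq2 on the 4 libraries called 555 higher and 520 lower.

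**Figure D2:**
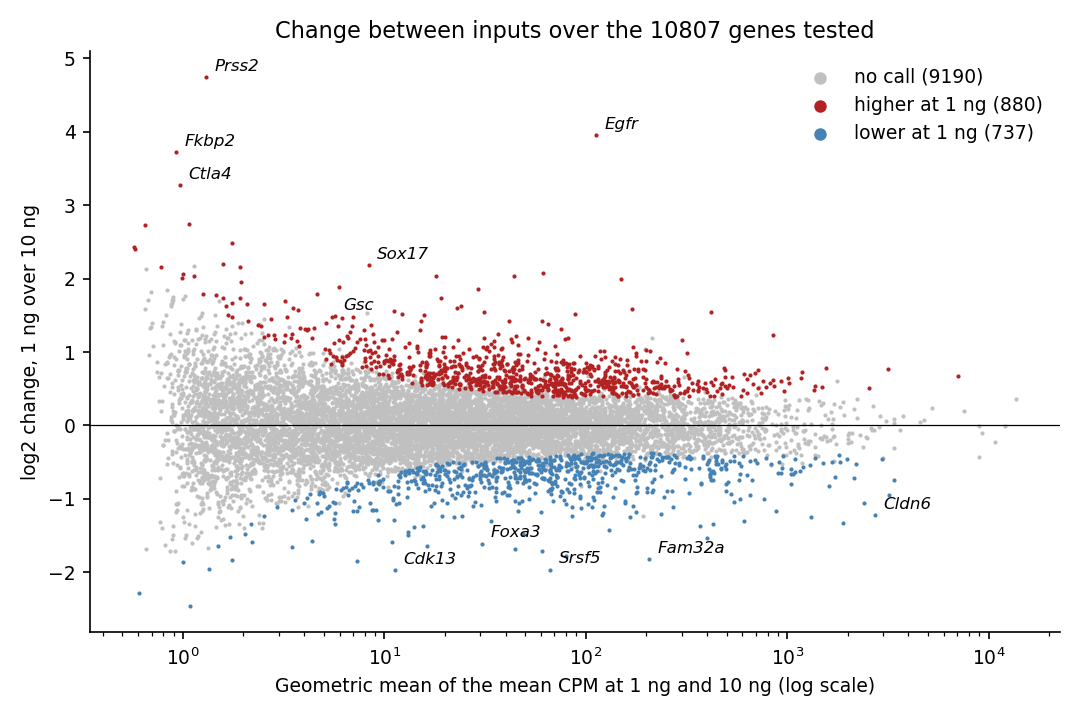
Log2 change of 1 ng over 10 ng (vertical axis) against the geometric mean of the 2 inputs' mean TMM-scaled CPM (horizontal axis, log scale), 1 point for each of the 10807 genes tested. Red points are the 880 genes called higher at 1 ng and blue points the 737 called lower; Egfr stands apart at a high level.

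Of the 99 lineage genes tested, 11 rose and 4 fell at 1 ng, which is 11.1% and 4.04%, against 8.14% and 6.82% of all genes tested. Their median log2 change was 0.05, against 0.01 for all genes. For 61 of the 99 the 95% interval lay within 2-fold, or 61.6%, against 70.0% of all genes. DESeq2 on the 4 libraries kept 8 of the 15 lineage calls (53.3%). Over all genes it kept 62.4% of the 880 higher and 67.7% of the 737 lower calls. Genes to which DESeq2 gave no adjusted p count here as not kept. Of the 17 rare lineage genes tested, Foxa3 alone was called with edgeR. Among all 1641 rare genes tested, 1.83% rose and 2.44% fell. Calls became more frequent with level, from 3.05% of genes under 0.5 CPM in standard RNA-seq to 22.2% of genes from 50 CPM up, as the median standard error of the log2 change shrank from 0.51 to 0.13.

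Definitive and anterior endoderm held 7 of the 15 calls, more than any other lineage list, with 4 genes higher and 3 lower of 17 tested (41.2% called, against 15.0% of all genes). Sox17, a transcription factor that specifies endoderm, stood at 17.2 and 17.9 CPM at 1 ng, against 4.45 and 3.61 CPM at 10 ng. The inputs were far apart, with a log2 change of 2.19 ± 0.22 (SE, adjusted p = 0.00033 in edgeR), and each fit without 1 library gave a change between 1.97 and 2.28. In standard RNA-seq Sox17 stood at 85.6 CPM, above both. Foxa3, a forkhead factor of gut and liver, moved the other way. It stood at 16.9 and 18.6 CPM at 1 ng, against 43.2 and 62.5 CPM at 10 ng and 3.45 CPM in standard RNA-seq. Its log2 change was -1.61 ± 0.18 (SE, adjusted p = 0.000557 in edgeR), with no overlap between inputs. The related Foxa2, which marks endoderm and the node, stood at 89.3 and 95.9 CPM at 1 ng, against 55.9 and 67.6 CPM at 10 ng, a rise of 0.57 ± 0.13 on the log2 scale. So 2 forkhead genes of the same tissue moved in opposite directions between inputs.

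Cldn6, a tight junction claudin of early epithelia, stood at 1742 and 1824 CPM at 1 ng, against 3709 and 4608 CPM at 10 ng and 366 CPM in standard RNA-seq. It fell by 1.22 on the log2 scale (SE 0.14). The summed level of the endoderm list, Cldn6 included, was 4436 and 4590 CPM at 1 ng, against 6824 and 7739 CPM at 10 ng. Gata6, a GATA factor of primitive and definitive endoderm, stood at 20.5 and 18.2 CPM at 1 ng, against 27.3 and 33.8 CPM at 10 ng. Dkk1, a secreted Wnt inhibitor of the anterior streak, stood at 18.1 and 14.1 CPM at 1 ng, against 8.90 and 8.92 CPM at 10 ng. Hesx1, a homeobox gene of anterior endoderm and forebrain, stood at 6.87 and 6.24 CPM at 1 ng, against 3.18 and 2.71 CPM at 10 ng. None of these genes overlapped between inputs, but 4 of the 7 calls missed the threshold in at least 1 fit without a library. Their changes kept their direction in these fits: the log2 change ran from 0.45 to 0.72 for Foxa2, from -0.81 to -0.51 for Gata6, from 0.66 to 1.01 for Dkk1 and from 1.03 to 1.27 for Hesx1, against 0.57, -0.70, 0.84 and 1.20 with all 4 libraries. Without replicate 1 of 1 ng, the adjusted p was 0.127 for Dkk1 and 0.0572 for Hesx1. Without replicate 2 of 1 ng it was 0.193 for Foxa2, 0.180 for Gata6 and 0.0735 for Hesx1, and without replicate 2 of 10 ng it was 0.0825 for Gata6 and 0.112 for Hesx1.

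Other endoderm markers stayed close. Hhex, a homeobox gene of anterior endoderm, stood at 34.9 and 31.8 CPM at 1 ng, against 29.2 and 31.97 CPM at 10 ng, with overlapping values. Cxcr4, the chemokine receptor used to sort definitive endoderm, stood at 70.2 and 70.6 CPM at 1 ng, against 52.7 and 61.2 CPM at 10 ng (adjusted p = 0.150 in edgeR, and 0.0328 without replicate 2 of 10 ng). Cer1, a secreted Nodal and BMP antagonist, stood at 249.6 and 255 CPM at 1 ng, against 307 and 355 CPM at 10 ng (adjusted p = 0.0522). Cer1 lay just outside the threshold, and 5 of the other fits called it lower, among them DESeq2 at an adjusted p of 0.0472. The 95% intervals of all 3 genes lay within 2-fold.

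In the primitive streak list 1 of 13 tested genes was called (7.69%, against 15.0% of all genes) and 10 of the 13 lay within 2-fold (76.9%, against 70.0%). Without replicate 1 of 10 ng the log2 change was 0.41 for the LIM homeobox gene Lhx1 and -0.46 for T. With all 4 libraries it was 0.39 for Lhx1 and -0.24 for T. The called gene, which rose, was Gsc, the homeobox gene of the organizer and anterior streak. It stood at 13.3 and 6.53 CPM at 1 ng, against 2.86 and 3.71 CPM at 10 ng and 30.97 CPM in standard RNA-seq. The inputs did not overlap, but the 1 ng libraries were themselves far apart. Its log2 change was 1.49 ± 0.37 (SE, adjusted p = 0.0220 in edgeR), and without replicate 1 of 1 ng it was 0.92 with an adjusted p of 0.123. T, the T-box gene that defines the streak, stood at 911 and 881 CPM at 1 ng, against 889 and 1229 CPM at 10 ng. Replicate 2 of 10 ng alone was high, and without replicate 1 of 10 ng T fell by 0.46 on the log2 scale, at an adjusted p of 6.3e-05. Mixl1, a homeobox gene of streak mesendoderm, stood at 43.0 and 43.5 CPM at 1 ng, against 49.6 and 43.6 CPM at 10 ng. Eomes, the T-box gene upstream of endoderm, had only 12 and 11 counts at 1 ng, against 3 and 12 at 10 ng, so its interval from -0.998 to 1.24 on the log2 scale bounds little.

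In the activin and Nodal pathway itself, 1 of 17 tested genes was called (5.88%, against 15.0% of all genes). The intervals of 13 of the 17 lay within 2-fold (76.5%, against 70.0%). Without replicate 1 of 10 ng the log2 change was -0.69 for Acvr2b, -0.48 for Foxh1, -0.30 for Smad2 and 0.44 for Smad4. With all 4 libraries these were -0.49, -0.46, -0.02 and 0.34. Nodal, the ligand, stood at 4.82 and 6.72 CPM at 1 ng, against 5.08 and 4.01 CPM at 10 ng (log2 change 0.42, 95% interval -0.21 to 1.06). Tdgf1, the Nodal co-receptor Cripto, stood at 379.5 and 375 CPM at 1 ng, against 352 and 374 CPM at 10 ng. Lefty2, a Nodal antagonist and direct target, stood at 6.99 and 7.30 CPM at 1 ng, against 3.81 and 7.62 CPM at 10 ng, so that the 1 ng values lay between those at 10 ng. Acvr2a, a type II activin receptor, stood at 48.4 and 42.9 CPM at 1 ng, against 34.6 and 31.4 CPM at 10 ng. Its rise of 0.48 ± 0.14 on the log2 scale (SE, adjusted p = 0.0415 in edgeR) was the smallest of the lineage calls. It missed the threshold without either replicate of 1 ng (adjusted p = 0.319 and 0.173) and without replicate 2 of 10 ng (0.107).

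In mesoderm 3 of 13 tested genes were called, all higher at 1 ng (23.1%, against 8.14% of all genes higher and 15.0% called). Foxc2, a forkhead factor of paraxial mesoderm, stood at 29.6 and 31.3 CPM at 1 ng, against 22.2 and 14.6 CPM at 10 ng. Bmp2, a BMP ligand, stood at 7.11 and 7.49 CPM at 1 ng, against 4.77 and 3.21 CPM at 10 ng. Twist1, a bHLH factor of mesenchyme, stood at 3.49 and 3.75 CPM at 1 ng, against 1.91 and 1.203 CPM at 10 ng. In all 3 genes the inputs did not overlap and replicate 2 of 10 ng was the lowest library. Without it the log2 changes were 0.45 for Foxc2 (adjusted p = 0.127), 0.61 for Bmp2 (0.346) and 0.91 for Twist1 (0.338), against 0.82, 0.99 and 1.37 with it. Without replicate 2 of 1 ng the adjusted p values were 0.119 for Foxc2, 0.179 for Bmp2 and 0.190 for Twist1, and without replicate 1 of 1 ng they were 0.0614 for Bmp2 and 0.0784 for Twist1.

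Among pluripotency and epiblast genes, 2 rose and 1 fell of 11 tested (18.2% and 9.09%, against 8.14% and 6.82% of all genes). Fgf5, the growth factor that marks the post-implantation epiblast, stood at 134.8 and 134.4 CPM at 1 ng, against 84.2 and 75.2 CPM at 10 ng. Its log2 change of 0.77 ± 0.12 (SE, adjusted p = 0.00285 in edgeR) was called in every fit without 1 library. Pou3f1, a POU factor of epiblast and neural plate, stood at 12.77 and 12.49 CPM at 1 ng, against 7.94 and 5.91 CPM at 10 ng. Pou5f1, the pluripotency factor Oct4, stood at 243.9 and 244.1 CPM at 1 ng, against 389.9 and 309.6 CPM at 10 ng. Both had inputs that did not overlap. Pou3f1 missed the threshold without replicate 2 of 1 ng (adjusted p = 0.0892) and without replicate 2 of 10 ng (0.156), and Pou5f1 without replicate 1 (0.188) or replicate 2 (0.235) of 1 ng. Of the 15 lineage calls, 4 held in all 4 fits without 1 library, those of Sox17, Foxa3, Cldn6 and Fgf5. Over all genes the same holds for 158 of the 880 higher (18.0%) and 15.9% of the 737 lower.

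Neuroectoderm, neural crest, blood and endothelium, germ cell, Hox, trophoblast and extraembryonic endoderm genes gave 0 calls among 29 genes tested with edgeR, against 15.0% of all genes. Some of the 29 are rare genes, for which calls were few: of all 1641 rare genes tested, 1.83% rose and 2.44% fell. At an unadjusted p under 0.05 there were 3 among the 29, Gcm1, Irx3 and Tek. DESeq2 called 0 of the 10 to which it gave an adjusted p. The absence of calls rested on the libraries in the fit. Without replicate 1 of 10 ng the log2 change was 1.20 for the Iroquois factor Irx3 and 0.32 for the imprinted placental gene Peg10. In that fit it was 1.84 for Sox1 and -0.29 for Zic2. With all 4 libraries these changes were 0.95 for Irx3, 0.25 for Peg10, 0.97 for Sox1 and -0.10 for Zic2. Without replicate 2 of 1 ng the change of Irx3 was 1.28. Otx2, a homeobox gene of anterior epiblast and brain, is listed with the epiblast and stood at 414 and 437 CPM at 1 ng, against 438 and 538 CPM at 10 ng. Zic2, a zinc finger factor of the neural plate, stood at 207 and 199 CPM at 1 ng, against 183 and 248 CPM at 10 ng. The 95% intervals of both lay within 2-fold, although without replicate 1 of 10 ng both were called lower at 1 ng, with adjusted p of 0.00511 for Otx2 and 0.0104 for Zic2. Most members of these lists were too rare to be tested: 11 of 28 neuroectoderm genes, 2 of 9 germ cell genes and 1 of 17 Hox genes were.

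**Figure D3:**
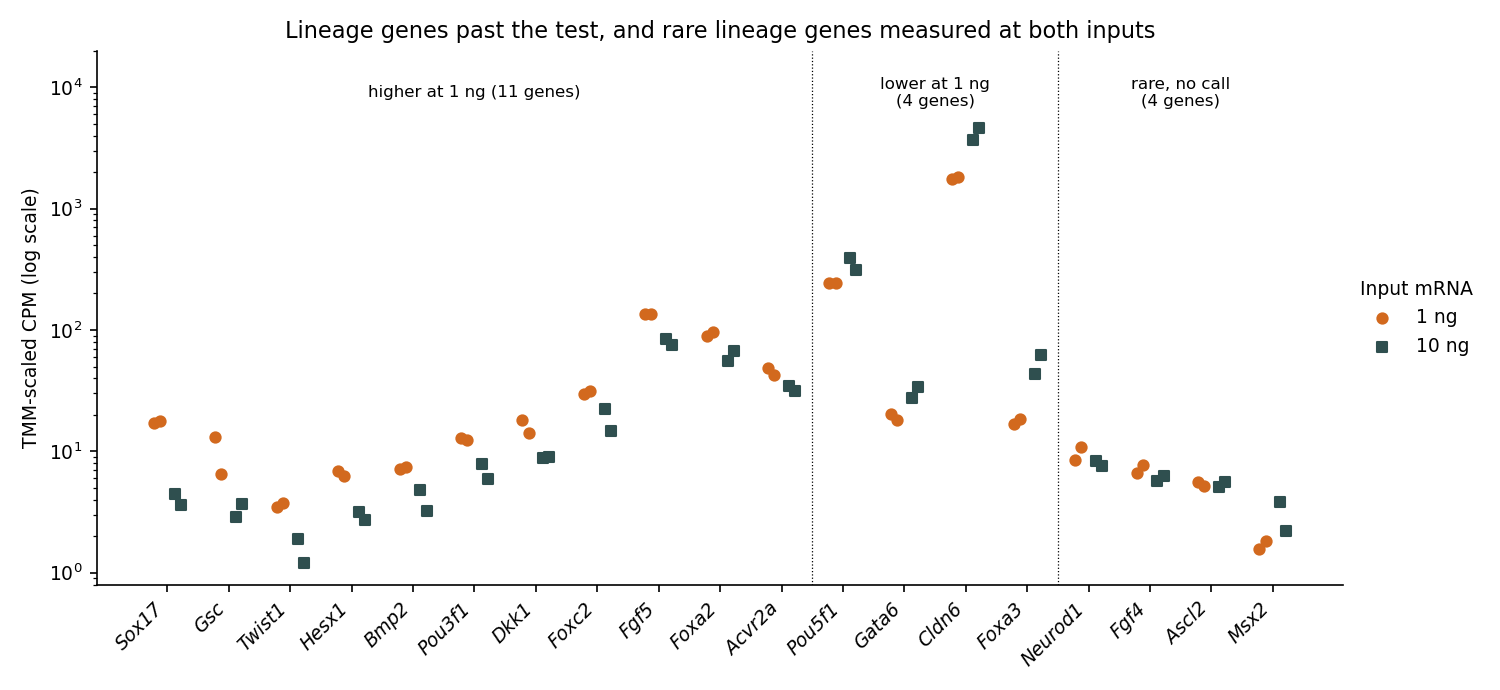
TMM-scaled CPM (vertical axis, log scale) in each library for the 15 lineage genes past the test and the 4 other rare lineage genes measured at both inputs; circles are the 2 libraries of 1 ng and squares the 2 of 10 ng. The inputs do not overlap in any of the 15, Sox17 rising most and Foxa3 falling most. The 15 were selected by the test on these same libraries.

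**Figure D4:**
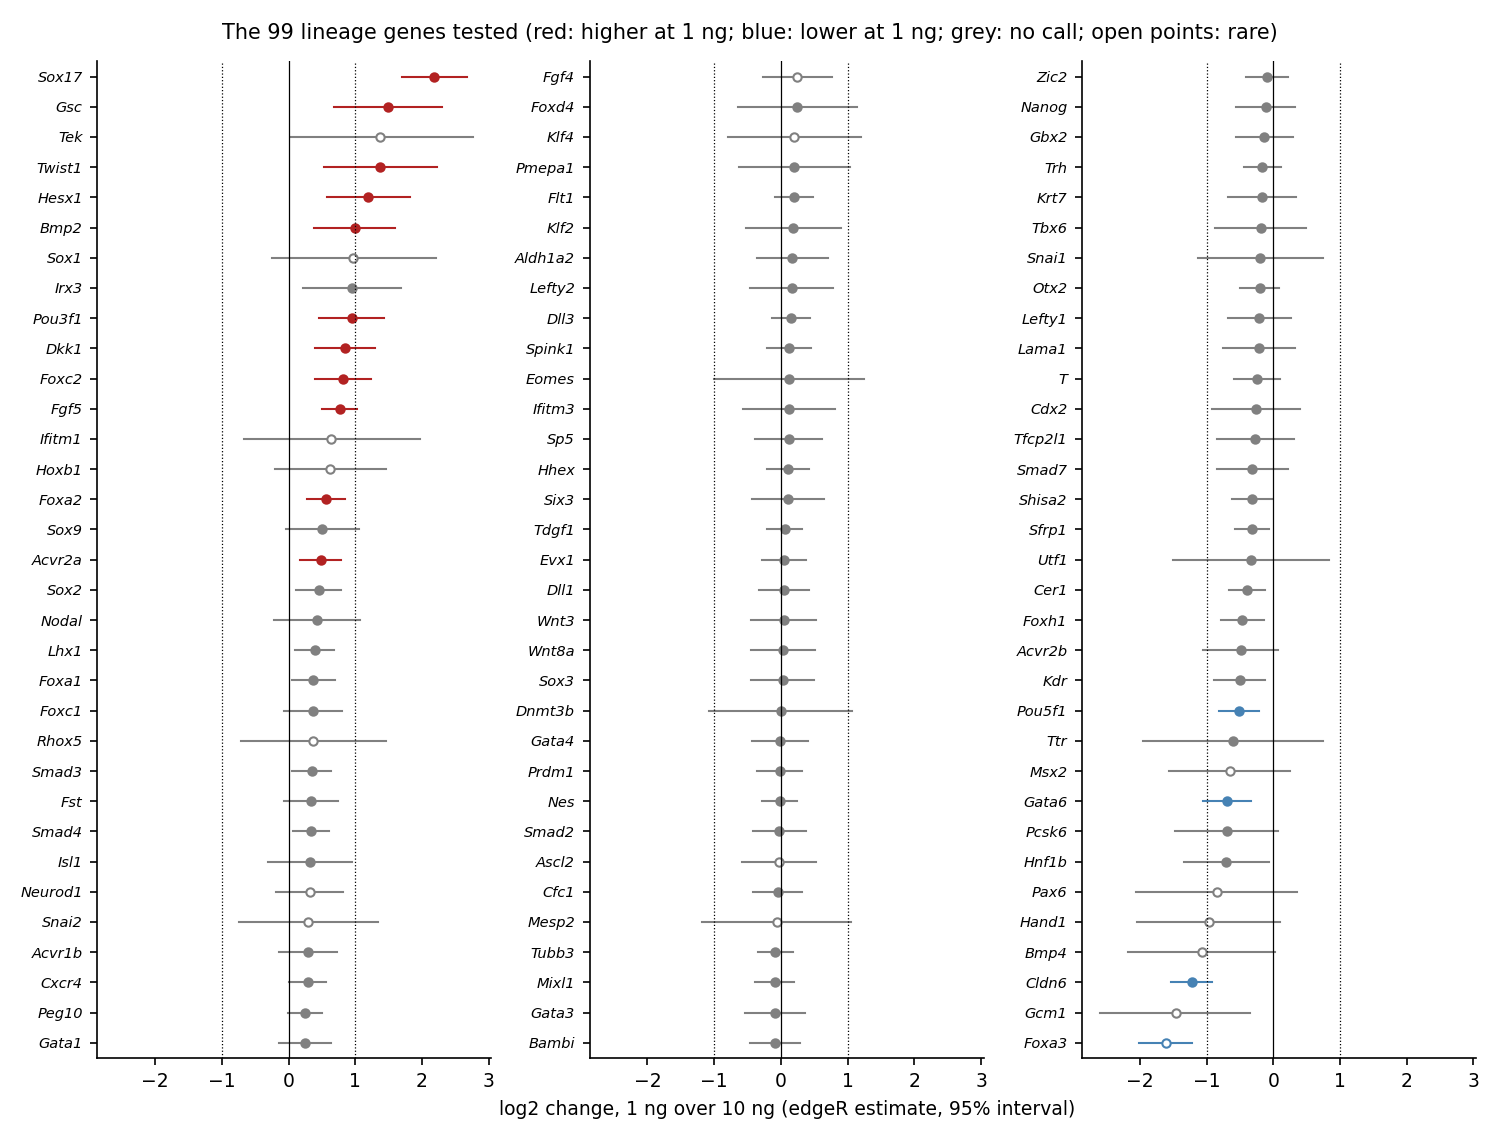
Log2 change of 1 ng over 10 ng with its 95% interval (horizontal axis) for the 99 lineage genes tested, in order of the change; red is higher and blue lower at 1 ng, grey is no call, and open points are rare genes. Dotted lines mark 2-fold, and 61 of the 99 intervals lie between them.

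The largest shifts were ranked among called genes with at least 50 counts over the libraries of the higher input, leaving out ribosomal protein copies, pseudogenes and unnamed models. Sox17 was the only lineage gene among the 10 largest rises ranked so. Egfr, the epidermal growth factor receptor, had 3879 and 4669 counts at 1 ng, against 63 and 358 at 10 ng, and 82 and 81 counts in standard RNA-seq. That is 467 and 448.5 CPM at 1 ng, against 20.0 and 35.9 CPM at 10 ng, a log2 change of 3.95 ± 0.21 (SE, adjusted p = 9.35e-06 in edgeR). Of its 2 listed transcripts, NM_207655.2 took 3877 and 4667 of the counts at 1 ng, against 63 and 354 at 10 ng. Along the dilution series Egfr had 11130 and 9344 CPM of the library total at 1 pg, 1423 and 36.3 at 10 pg, 320.0 and 392.0 at 50 pg, 258 and 189 at 100 pg, 474 and 449.5 at 1 ng, and 20.3 and 34.7 at 10 ng. It was thus higher at every input below 10 ng than at 10 ng, in all 10 libraries, though by little in replicate 2 of 10 pg.

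Prss2, a pancreatic trypsinogen, and Ctla4, a T cell checkpoint receptor, had no count in standard RNA-seq. Prss2 had 70 and 89 counts at 1 ng, against 0 and 4 at 10 ng. Ctla4 had 21 and 37 counts at 1 ng, against 1 and 3 at 10 ng. Both stood higher in CPM of the library total at 1 pg, at 189 and 176 for Prss2 and 25.7 and 13.4 for Ctla4, than at 1 ng, at 8.56 and 8.57 for Prss2 and 2.57 and 3.56 for Ctla4. The Ctla4 values at 1 pg rest on 11 and 6 counts. The inputs between showed no steady rise. At 100 pg Prss2 stood at 8.76 and 4.30 and Ctla4 at 1.65 and 1.82. At 50 pg Ctla4 stood at 2.25 and 2.23, also below its 1 ng values. Fkbp2, an endoplasmic reticulum prolyl isomerase, had 41 and 18 counts at 1 ng, against 1 and 2 at 10 ng. Unlike Prss2 and Ctla4, it had at most 2 counts in any library of 100 pg or less. Irx5, an Iroquois homeobox gene, had 32 and 49 counts at 1 ng, against 2 and 8 at 10 ng. Yy1, a widespread zinc finger factor, stood at 116 and 128 CPM at 1 ng, against 38.1 and 23.5 CPM at 10 ng. Among genes of dividing cells, the centromere histone Cenpa stood at 80.0 and 96.5 CPM at 1 ng, against 24.5 and 19.8 CPM at 10 ng. All of these rises held in each fit without 1 library. Ttc19, also among the 10 largest rises with a log2 change of 2.16, did not. Its change ran from 1.15 to 2.80 in these fits.

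Foxa3 was the only lineage gene among the 10 largest falls ranked in the same way. Over all genes tested, with no minimum of counts, the log2 change ran from -2.46 to 4.74. Cdk13, a transcription kinase, stood at 5.66 and 5.96 CPM at 1 ng, against 19.7 and 24.7 CPM at 10 ng. Srsf5, a splicing factor, stood at 30.5 and 36.7 CPM at 1 ng, against 154 and 112 CPM at 10 ng. Fam32a stood at 115 and 106 CPM at 1 ng, against 409 and 369 CPM at 10 ng. Inputs were well separated in each, with log2 changes of -1.97 ± 0.20, -1.96 ± 0.17 and -1.81 ± 0.12 (SE). Sec61g, a subunit of the translocon of the endoplasmic reticulum, stood at 43.0 and 43.6 CPM at 1 ng, against 138.5 and 157 CPM at 10 ng and 8.65 CPM in standard RNA-seq. Tdh, the threonine dehydrogenase of mouse stem cells, stood at 5.42 and 7.01 CPM at 1 ng, against 21.9 and 16.9 CPM at 10 ng. These falls too held in each fit without 1 library.

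Housekeeping groups were mixed. Cytoplasmic ribosomal protein genes had 21 higher and 5 lower of 77 tested, or 27.3% and 6.49% against 8.14% and 6.82% of all genes, with a median log2 change of 0.21, and their summed level was 70410 and 71047 CPM at 1 ng, against 70574 and 77807 CPM at 10 ng. Counts of these genes may be shared with near-identical copies. Oxidative phosphorylation genes, assembly factors included, had 21 higher (25.6%) and 5 lower (6.10%) of 82, with a median of 0.28. Of these, Atp5mpl, a small subunit of ATP synthase, stood at 34.2 and 41.7 CPM at 1 ng, against 17.8 and 9.92 CPM at 10 ng. Proteasome genes had 6 higher (16.7%) and 3 lower (8.33%) of 36, and immediate early and stress genes 1 and 1 of 12 (8.33% each). Glycolysis genes had 3 calls of 16, all lower (18.8%), but the list's median log2 change was -0.07 and 43.8% of its genes lay above 0. Without replicate 2 of 10 ng the change was 0.37 for Gapdh and 0.31 for Slc2a1, against 0.23 and 0.17 with all 4 libraries. Genes of DNA replication and division had 4 calls of 22, all lower (18.2%, against 6.82% of all genes), namely Rrm2, Mcm6, Mcm2 and Cdk1. The median log2 change of this list was -0.03, and 45.5% of its genes lay above 0. Cenpa, which is outside the list, rose by 2.04 on the log2 scale. Rrm2, a ribonucleotide reductase subunit, stood at 464 and 462.5 CPM at 1 ng, against 707 and 763 CPM at 10 ng. Without either replicate of 1 ng none of the 22 genes was called. The adjusted p was then 0.0821 and 0.119 for Rrm2 and 0.112 and 0.0952 for Mcm6, while the log2 change stayed between -0.72 and -0.62 for Rrm2 and between -0.71 and -0.61 for Mcm6 in all 4 fits.

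The shifted genes differed in base composition. The median GC content of their transcripts was 45.4% for the 869 higher genes with a reference sequence and 51.7% for the 734 lower genes, against 50.1% for all 10615 tested genes with one. In the 10% of genes with the lowest GC (33.7% to 41.98%), 20.5% were higher and 2.64% lower at 1 ng. In the 10% with the highest GC (58.0% to 72.3%), 3.95% were higher and 7.16% lower. The median log2 change went with it, at 0.27 for the lowest 10% and -0.10 for the highest. In the pair of replicates 1 the medians were 0.19 and 0.03 in these sets, and in the pair of replicates 2 they were 0.29 and -0.15. The excess at low GC was in both of these pairs, and a deficit in the highest 10% in 1 of them. Since the replicate numbers do not pair the samples, these are 2 of the 4 possible pairs, and the crossed pairs were not examined by GC. Replicates of the same input also differed by GC: the median log2 ratio of replicate 2 over replicate 1 was 0.05 for the lowest and -0.12 for the highest 10% at 1 ng, and -0.05 and 0.10 at 10 ng. Length moved less, with 154 of the 1062 genes in the shortest 10% higher at 1 ng, against 87 of 1062 in the longest. With a correction for GC, chosen after these values were seen, 650 genes were higher and 684 lower, and 595 of the 880 and 578 of the 737 calls remained.

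**Figure D5:**
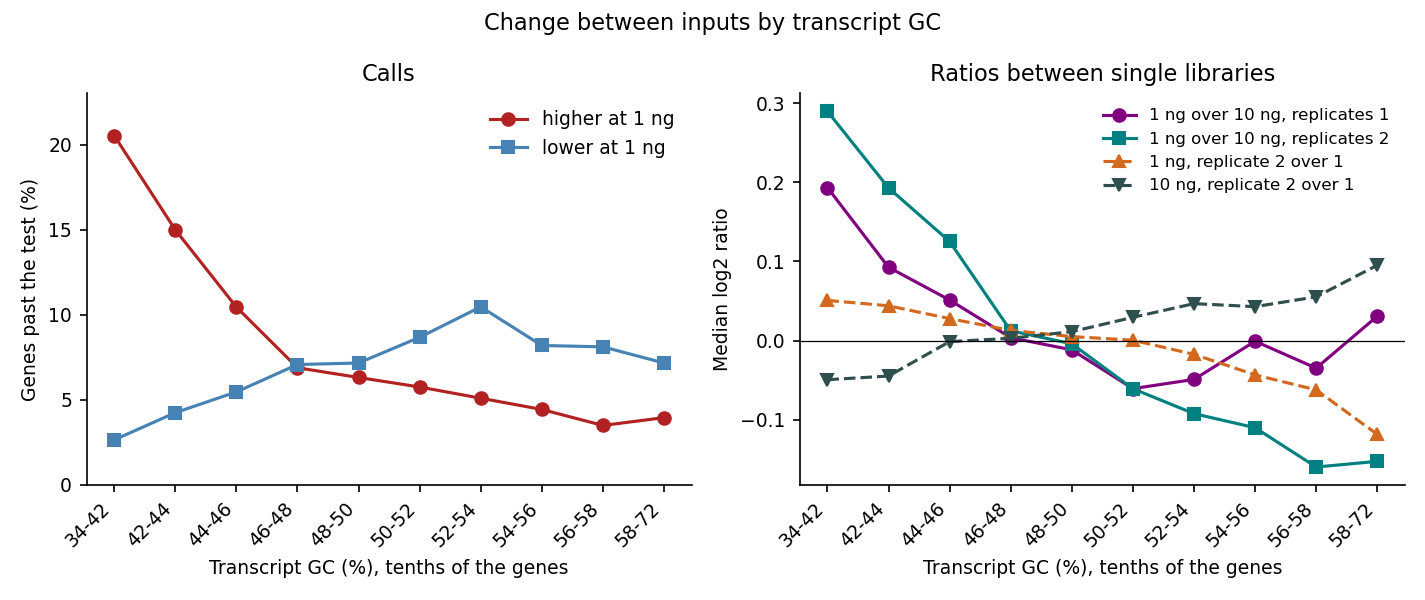
Left, percentage of genes called higher (circles) and lower (squares) at 1 ng in 10 equal sets of genes by transcript GC (horizontal axis, %). Right, median log2 ratio between single libraries in the same sets; the solid lines are 1 ng over 10 ng in each pair of replicates and the dashed lines replicate 2 over replicate 1 of 1 input, and all 4 lines slope with GC.

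The lineage genes that rose include some of low and some of high GC. To show what these differences in composition look like, 120 coding bases are given for 5 called lineage genes, some that rose and some that fell. Every G and C is in capitals. Each is the start of the coding part of the gene's longest coding exon, 5′ to 3′ on the gene's strand, from GENCODE M21 transcripts on GRCm38. Acvr2a (exon 2, chr2:48870289-48870408, + strand) and Hesx1 (exon 2, chr14:27001372-27001491, + strand) rose and are low in GC, at 39.9% and 42.9% over the transcript. Gsc (exon 1, chr12:104472996-104473115, - strand) rose as well and has 66.6%. Pou5f1 (exon 1, chr17:35506100-35506219, + strand) and Cldn6 (exon 3, chr17:23681064-23681183, + strand) fell and have 57.6% and 54.4%.
Acvr2a: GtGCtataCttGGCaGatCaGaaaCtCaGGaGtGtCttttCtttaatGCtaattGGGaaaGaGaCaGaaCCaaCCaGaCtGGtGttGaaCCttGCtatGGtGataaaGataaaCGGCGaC
Hesx1: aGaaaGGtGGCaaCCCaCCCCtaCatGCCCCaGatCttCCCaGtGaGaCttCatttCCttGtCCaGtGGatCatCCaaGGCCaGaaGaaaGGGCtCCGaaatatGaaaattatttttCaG
Gsc: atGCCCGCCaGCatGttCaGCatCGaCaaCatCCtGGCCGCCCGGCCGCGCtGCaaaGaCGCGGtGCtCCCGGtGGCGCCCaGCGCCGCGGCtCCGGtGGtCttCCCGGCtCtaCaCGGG
Pou5f1: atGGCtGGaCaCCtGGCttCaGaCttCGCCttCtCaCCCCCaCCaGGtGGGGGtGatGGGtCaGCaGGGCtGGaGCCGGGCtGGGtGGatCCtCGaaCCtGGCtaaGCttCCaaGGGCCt
Cldn6: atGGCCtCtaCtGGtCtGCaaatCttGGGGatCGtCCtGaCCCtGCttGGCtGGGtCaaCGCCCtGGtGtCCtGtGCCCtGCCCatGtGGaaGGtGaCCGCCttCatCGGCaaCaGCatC
The stretches hold 42.5% G and C in Acvr2a, 46.7% in Hesx1, 71.7% in Gsc, 64.2% in Pou5f1 and 60.0% in Cldn6. Over all 11 lineage genes that rose, transcript GC ran from 39.9% to 66.6% with a median of 52.5%, and over the 4 that fell from 54.4% to 57.6%. With the GC correction 13 of the 15 lineage calls remained. Acvr2a (log2 change 0.23, adjusted p = 0.313) and Pou5f1 (-0.42, adjusted p = 0.0830) were the calls lost.

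Standard RNA-seq of the same dose gives an outside value for the shifted genes. After both DP-seq inputs were centred on their median ratio to standard RNA-seq, 9 of the 11 lineage genes that rose were nearer the standard level at 1 ng than at 10 ng, as were 2 of the 4 that fell. On this log2 scale Sox17 lay at -1.73 relative to standard RNA-seq at 1 ng and at -3.68 at 10 ng. Foxa3 lay at 2.73 at 1 ng and at 4.33 at 10 ng. The exceptions were Acvr2a and Foxc2 among the genes that rose and Gata6 and Pou5f1 among those that fell, which lay nearer at 10 ng. Over all genes, 48.3% of the higher and 70.8% of the lower genes were nearer at 1 ng, against 52.3% of all genes tested.

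The error behind each input was estimated from its replicates. For the 10436 genes that averaged 10 or more counts, the SD of the log2 ratio between replicates was 0.35 at 1 ng and 0.46 at 10 ng. Counting noise at these depths would give 0.25 at 1 ng and 0.36 at 10 ng, which leaves an excess of 0.25 at 1 ng and 0.29 at 10 ng. Replicates stayed within 2-fold of each other for 98.3% of these genes at 1 ng and 95.6% at 10 ng. The larger spread at 10 ng goes with the shallow replicate 1, and the excess beyond counting noise differed by less.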

How the data were processed

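The 1 ng and 10 ng DP-seq libraries and, to define rarity, the standard RNA-seq libraries of the same activin dose were used, with the other dilutions for comparison. Per the file headers, the authors deposited counts of unique reads for each RefSeq transcript. The deposited tables with a few values that are not whole were treated as estimated counts and rounded. For the aligner, the counting rule, strand use and the genome build: not given in the sources used here. Overlapping genes and near-identical copies may therefore be split or merged. Of 26566 transcripts, 25853 were named by a RefSeq table and 154 by GENCODE, 559 keep their identifier, and counts were summed to 21844 genes.

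edgeR 4.0.16 in R 4.3.3 (filterByExpr with minimum count 10 and total 15, TMM, robust quasi-likelihood fit, Benjamini-Hochberg adjusted p under 0.05) tested 1 ng over 10 ng on the 4 libraries; the procedure was tested on simulated data. Unless said otherwise CPM are TMM-scaled, ± is a standard error, and intervals use the fit's degrees of freedom. Fits without 1 library assume that a lone library varies like the other input. GC and length come from the longest listed transcript in GENCODE M21; the GC correction is a lowess offset with span 0.3. Detection at a common depth is the hypergeometric expectation. Named are lineage genes past the test, rare lineage genes measured at 10 ng, the members with the largest change, and the 10 largest rises and falls with at least 50 counts; a selection is printed. Genes that crossed the limit of 10 counts, the pathway and lineage markers that did not change, Skil, Rny1, Mcm2 and Cdk1 are named outside that rule, after their values were seen. The libraries, gene lists and tests were chosen with earlier results of these data known. DESeq2 1.42.0 was an alternative. Tables and figures used Python 3.11.15, pandas 2.3.3 and matplotlib 3.10.9.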

Additional observations from a re-analysis of the deposited data

How the results depend on the processing

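The same-numbered libraries did not deviate together (r = -0.03 over 10807 genes), so the numbers do not pair the samples. With the replicate block 873 genes were higher and 713 lower, 60 lineage genes lay within 2-fold, and Acvr2a (adjusted p = 0.0516) and Mbp (0.0536) were no longer called; it changed no other call named here. With all 12 dilution libraries in the fit 0 genes were higher, 0 lower and 4 lineage genes within 2-fold; the smallest adjusted p was 0.491. DESeq2 gave 555 higher and a test against a change of 1.5-fold gave 35 higher and 38 lower. Without 1 library in turn, higher genes ranged from 197 to 1596 and lower genes from 139 to 1436, and rare lineage genes that stay measured from 5 to 9. The 9 were of 14 measured at 10 ng without its replicate 1 (64.3%), against 1202 of 1630 rare genes (73.7%). Rare lineage genes that stayed measured were 13 of 14 and 2 of 2 at limits of 5 and 20 counts. They were 1 of 1 and 11 of 11 with rarity under 2 and 10 CPM. With replicate 2 of each input alone they were 11 of 14. The SD between replicates was 0.24 at 1 ng and 0.33 at 10 ng from 50 counts, and 0.33 at 1 ng and 0.42 at 10 ng with a prior count of 2. The cause of these moves was not tested, except that lower limits admit more genes. Lineage genes that stay measured, and those within 2-fold elsewhere, were within 1.5 times of 78 and 61.

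Some uncalled log2 changes reversed their sign: Ascl2 at 0.017 with library totals and 0.078 with the GC correction, and Tdgf1 at -0.028 with the latter. Without 1 library they ran from -0.0698 to 0.0661 for Ascl2, -0.10 to 0.36 for Eomes, -0.092 to 0.90 for Lefty2, -0.46 to 0.0027 for T, -0.29 to 0.14 for Zic2, -0.17 to 1.84 for Sox1, -0.53 to 1.53 for Ifitm1, -0.14 to 1.19 for Klf4 and -0.40 to 0.35 for Mesp2. No called gene named here reversed its direction in any fit. Depth limits what 10 ng shows: replicate 1 has 3110866 counts, and rare genes under 10 counts there cannot be read as lost.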
